A study of Homo sapiens with 4 samples.

Results

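The 13 regions described here are clusters of zinc finger genes that lie outside chromosome 19, on 11 chromosomes. Each was taken as a fixed hg19 interval, and its members were the peaks that overlapped the interval, 575 of 326674 peaks in list 1 and 517 of 264919 peaks in list 2 on chromosomes 1 to 22 and X. The intervals were given by position and not by peak values, but they were chosen with earlier results of these data known. The cells were U2OS, a long-established osteosarcoma line of human origin, in which H3K9me3 was mapped by ChIP-seq, and all 4 samples carry the name U2OS-KRAB-IDR3-TCF3, which the labels do not explain. There were 2 samples precipitated with an antibody against H3K9me3 and 2 input samples without antibody. The values came from 2 broad peak lists. By their labels list 2 would belong to both antibody samples and list 1 to both input samples, yet each list calls its own peaks immunoprecipitation peaks. Neither list was therefore given to a sample or group, and list 1 and list 2 were described side by side and not compared as treatments. Each value is a single number per list, so there was no replicate error and no test, and the sequencing depth behind it is unknown.

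H3K9me3 is a mark of constitutive heterochromatin that is bound by HP1 proteins. Zinc finger genes of the C2H2 class make up the largest family of transcription factors in human and often lie in clusters of tandem copies, with the largest concentration on chromosome 19. Many encode a KRAB domain, which recruits the corepressor TRIM28 (KAP1) and through it the H3K9 methyltransferase SETDB1, and the bodies of these genes are themselves known to carry H3K9me3. A related class carries a SCAN domain, through which the proteins pair. The KRAB domain of ZNF10 (KOX1), a gene of the 12q24 cluster, is widely used in artificial repressors. The labels do not say where the KRAB part of the name of these cells comes from.

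The promoters of 3 zinc finger genes of the clusters are shown, with each CG pair in capitals. They are for the cluster with the highest and that with the lowest covered share in list 2, and for ZNF10. Each runs from 250 bases before to 50 bases after the gene start in RefSeq, 5′ to 3′ on the strand of the gene. ZNF354A of 5q35 lies on the minus strand at chr5:178730610-178730909, ZNF789 of 7q22 on the plus strand at chr7:99472640-99472939 and ZNF10 of 12q24 on the plus strand at chr12:133130377-133130676, all on GRCh38.p14, which are not hg19 positions.
ZNF354A: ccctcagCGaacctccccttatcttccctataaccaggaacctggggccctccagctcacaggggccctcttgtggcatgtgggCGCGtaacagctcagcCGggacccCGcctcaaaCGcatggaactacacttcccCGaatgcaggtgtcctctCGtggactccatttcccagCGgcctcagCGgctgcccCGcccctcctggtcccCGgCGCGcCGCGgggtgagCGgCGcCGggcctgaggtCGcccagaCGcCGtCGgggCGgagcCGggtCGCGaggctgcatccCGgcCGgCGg
ZNF789: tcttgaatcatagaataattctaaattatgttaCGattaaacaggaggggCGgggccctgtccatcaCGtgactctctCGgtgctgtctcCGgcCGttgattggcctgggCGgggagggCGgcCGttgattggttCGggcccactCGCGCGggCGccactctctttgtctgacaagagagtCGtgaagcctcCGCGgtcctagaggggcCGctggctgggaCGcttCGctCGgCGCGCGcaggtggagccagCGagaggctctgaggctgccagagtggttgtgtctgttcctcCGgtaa
ZNF10: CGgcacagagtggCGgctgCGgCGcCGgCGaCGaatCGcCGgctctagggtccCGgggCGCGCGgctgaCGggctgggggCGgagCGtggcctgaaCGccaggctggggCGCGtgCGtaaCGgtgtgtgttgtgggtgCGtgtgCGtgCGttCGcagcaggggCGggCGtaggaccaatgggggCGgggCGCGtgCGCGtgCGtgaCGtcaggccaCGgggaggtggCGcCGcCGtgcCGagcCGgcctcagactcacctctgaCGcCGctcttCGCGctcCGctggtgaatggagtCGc
They held 30, 26 and 46 CG pairs. The letters CG read the same on both strands. Of the 87 zinc finger symbols of the clusters, 71 had a promoter in the table, with a median of 21 CG pairs in 300 bases, against 22 for 15478 named protein-coding genes. At least 10 CG pairs stood in 88.7% of the zinc finger promoters and in 73.5% of those of all these genes. Whether a promoter lay within the interval of its cluster, or inside or between peaks, was not read, since intervals and peaks are on hg19.

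The runs of genes taken for the clusters held 87 zinc finger symbols in the RefSeq gene table, beside a few other genes. From the lowest to the highest position in each cluster, 1q44 ran from ZNF695 to ZNF496 (5 of 5 named protein-coding genes), 3p21 from ZNF445, a regulator of genomic imprinting, to ZNF501 (8 of 8), 4p16 from ZNF595 to ZNF721 (5 of 5) and 5q35 from ZNF354A to ZNF354C (6 of 7, the other being the glutamate receptor gene GRM6). The 6p22 cluster ran from ZNF165 to ZSCAN23 (10 of 12), and 9 of its 10 symbols have SCAN in the name. So do ZKSCAN7 in 3p21, 2 symbols of 7q22 and 2 of 16p13, among them the pluripotency factor gene ZSCAN10. Genes that encode a SCAN domain under another name were not counted. On chromosome 7, 7q11 ran from ZNF727 to ZNF92 (10 of 11), 7q22 from ZNF789 to ZSCAN25 (5 of 7) and 7q36 from ZNF786 to ZNF467 (9 of 10). The 8q24 cluster ran from ZNF251 to ZNF16 (6 of 8, with the ribosomal protein gene RPL8), 9q22 from ZNF367 to ZNF782 (3 of 6, with the phosphatase gene CDC14B), 10p11 from ZNF248 to ZNF37A (4 of 4), 12q24 from ZNF605 to ZNF268 (7 of 7) and 16p13 from ZSCAN10 to ZNF597 (9 of 13, with MEFV, the gene of familial Mediterranean fever). The table is on GRCh38.p14, so it served for names and gene order alone. No gene was placed at an hg19 position, and the first and last gene of each cluster were set from general knowledge of the assembly. Every run starts and ends with a zinc finger gene. The counts therefore describe the genes between these ends, and other genes of the hg19 intervals may be missing from them. Genes of the runs may also lie outside the hg19 intervals.

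Most of the clusters were covered by peaks over more of their length than the surrounding sequence. All listed peaks were used, of which 0.19% in list 1 and 2.07% in list 2 had a q-value at or under 0.05. The covered share of a cluster was set against that of the 2 Mb on either side, from which stretches of at least 1 Mb without a peak in either list were taken out. The typical cluster (median of 13) had 58.9% of its length in peaks of list 1 and 48.4% in peaks of list 2, against 41.8% and 25.9% for the flanks. Cluster over flanks, the median ratio was 1.34 (list 1) and 1.87 (list 2). The same ratio, taken over 5663 windows of 0.5 Mb along chromosomes 1 to 22 and X, had a median of 1.01 in list 1 and 0.967 in list 2. A cluster was called higher at a ratio of at least 1.5 and lower at 1 divided by 1.5 or less. In list 1, 6 of 13 clusters were higher, where 7.1% of the windows were. In list 2, 10 of 13 were higher, where 14.4% of the windows were. The 6 clusters of list 1 were higher in list 2 as well, and 6.55% of the windows were higher in both lists. A ratio above 1 in both lists was reached by 11 of 13 clusters and by 43.5% of the windows, and in single lists by 11 clusters in list 1 (50.9% of windows) and 12 in list 2 (47.1%). In each list 1 cluster was lower, 7q22, where 16.9% of the windows in list 1 and 25.3% in list 2 were. The clusters differ in width from 190 to 1500 kb, so the windows are a description of the genome and not a matched set.

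**Figure D1:**
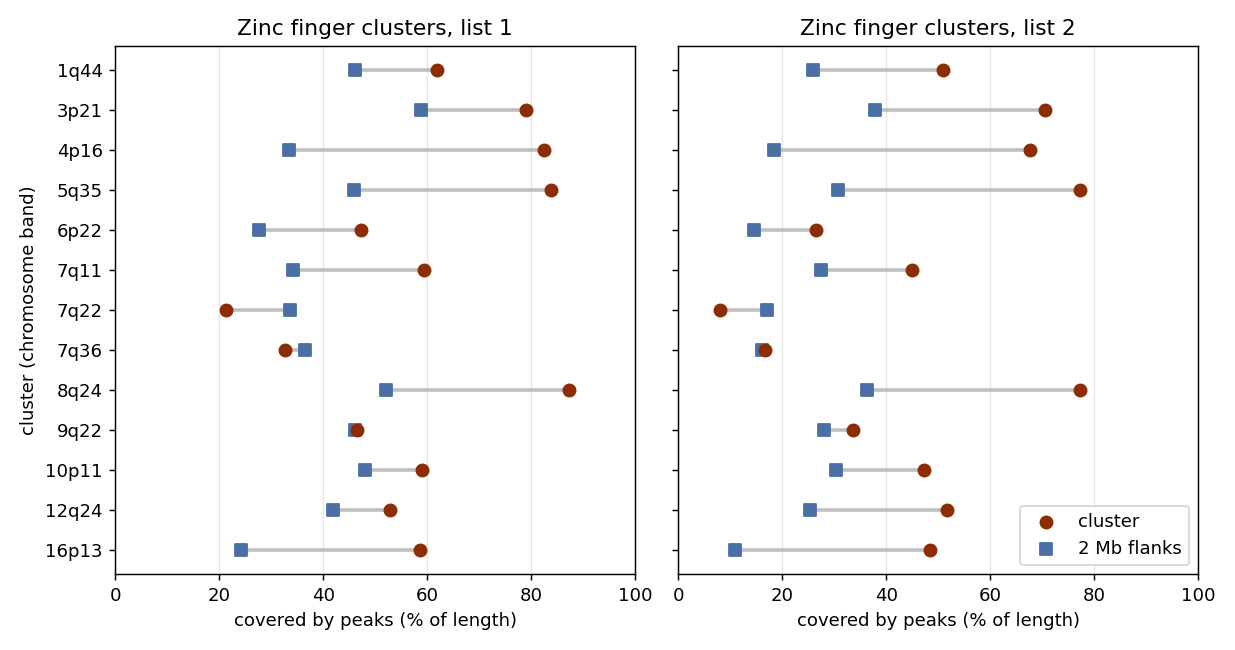
Covered share (% of length, x axis) of each of the 13 clusters (circles) and of its 2 Mb flanks (squares), list 1 on the left and list 2 on the right. The circle lies to the right of the square in 11 clusters in list 1 and 12 in list 2, and to the left in 7q22 in both.

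**Figure D2:**
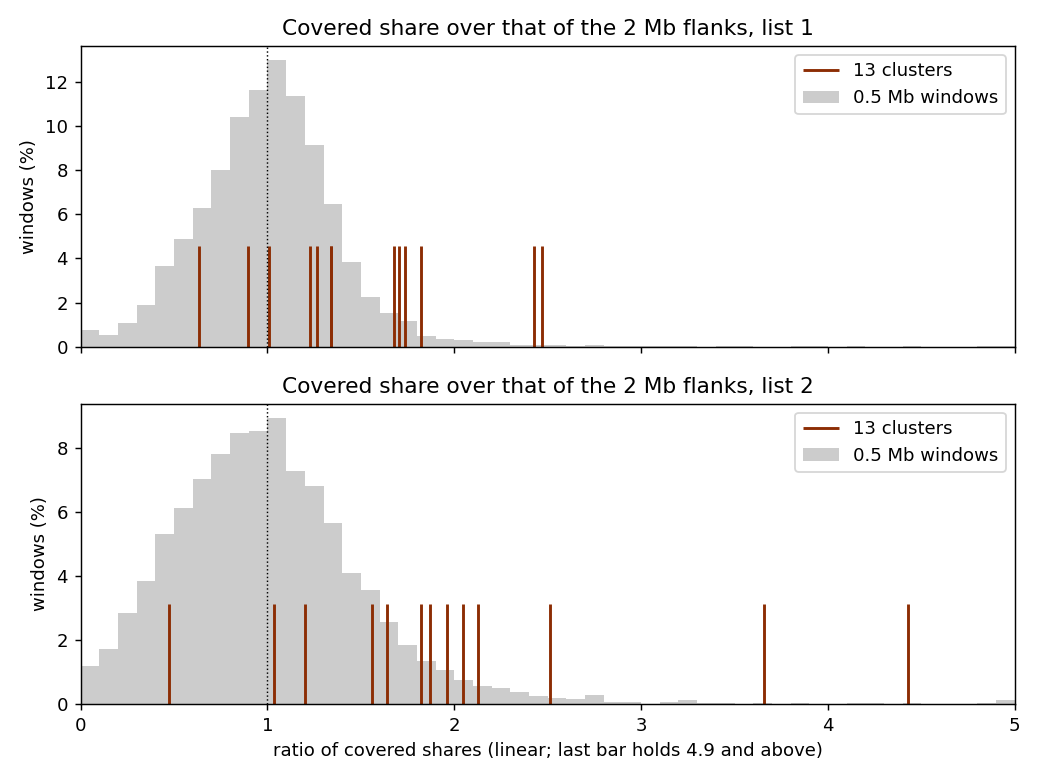
Ratio of the covered share to that of the 2 Mb flanks (x axis, linear), for the 13 clusters (lines, whose height has no meaning) and for 5663 windows of 0.5 Mb (bars, % of windows). Clusters at 1.5 or above number 6 in list 1 (top) and 10 in list 2 (bottom).

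The cluster on the short arm of chromosome 16 and that at the start of chromosome 4 stood furthest above their surroundings. 16p13, chromosome 16 from 3100001 to 3500000, had 58.6% of its length covered in list 1 and 48.4% in list 2, against 24.1% and 10.9% in its flanks. The ratios were 2.43 and 4.43, which 0.512% and 0.230% of the windows reached. With flanks of 5 Mb the ratios were 1.35 and 1.83, so that in list 1 the cluster was no longer higher. 4p16, chromosome 4 from 50001 to 500000, was covered 82.5% and 67.6%, against 33.4% and 18.5% in its flanks, with ratios of 2.47 and 3.66. Its flank on the side of the chromosome end was 50 kb long, so the comparison rests on the other side. With flanks of 1 Mb the ratios of 4p16 were 1.89 and 2.46. The first 100 kb past its border at higher positions were covered 91.6% and 76.8%. The flanks of 16p13 were the least covered of all the clusters in both lists. Those of 4p16 were covered more than those of 6p22 (27.7% and 14.5%).

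The densest clusters were 8q24 and 5q35. 8q24, chromosome 8 from 145900001 to 146200000, had 87.2% of its length covered in list 1 and 77.2% in list 2, against 52.0% and 36.3% in its flanks (ratios 1.68 and 2.13). It lies near the end of the chromosome, and only 101 kb of flank remained beyond it. With flanks of 5 Mb its ratio in list 1 was 1.41, under the limit of 1.5. 5q35, chromosome 5 from 178200001 to 178600000, was covered 83.7% and 77.3%, against 45.9% and 30.8% (ratios 1.82 and 2.51). Of the 0.5 Mb windows, 4.91% in list 1 and 1.84% in list 2 were covered as much as 5q35. When peaks less than 10 kb apart were joined, 8q24 lay within a domain of 514 kb in list 1, past both borders, while in list 2 the longest domain began inside it and held 54.2% of it. In the same way 5q35 lay within a domain of 1025 kb in list 1, which began 533 kb before the cluster, and 83.0% of it lay in a domain of 421 kb in list 2.

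The clusters 3p21, 1q44 and 12q24 were higher in list 2 and between the limits in list 1. 3p21, chromosome 3 from 44400001 to 44850000, had 78.9% of its length covered in list 1 and 70.6% in list 2, against 58.8% and 37.8% in the flanks (ratios 1.34 and 1.87). With borders 100 kb further out its ratio in list 2 was 1.46, under the limit, and with flanks of 5 Mb its ratio in list 1 was 1.66, over it. 1q44, chromosome 1 from 247000001 to 247500000, was covered 61.9% and 50.9%, against 46.2% and 25.9% (ratios 1.34 and 1.96). 12q24, chromosome 12 from 133400001 to 133840000, was covered 52.9% and 51.7%, against 41.8% and 25.3% (ratios 1.26 and 2.05). The cluster ends 1.89 kb before the last peak of the chromosome, so it was compared with 1 side only. With flanks of 5 Mb its ratios were 0.766 in list 1 and 0.992 in list 2, so its call in list 2 rests on the nearer surroundings. With flanks of 1 Mb the ratios were 1.78 and 3.94. When peak-free stretches of at least 100 kb were taken out, a setting chosen after seeing the data, they were 2.03 and 3.28. 10p11, chromosome 10 from 38000001 to 38500000, had a similar pattern, with 58.9% and 47.2% against 48.0% and 30.2% (ratios 1.23 and 1.56). From its flanks 1.35 Mb of the peak-free stretch around the centromere were taken out. With that stretch counted the ratios of 10p11 were 1.85 and 2.35, and with flanks of 1 Mb they were 1.73 and 2.23. Under both settings 10p11 was higher in list 1 as well. Its ratio in list 2 fell below 1.5 with flanks of 5 Mb (1.38), with the lower flank alone (1.45) and with borders 100 kb further out (1.17). List 1 holds peaks of lower −log10 p than list 2, so the calls of the lists stand at unlike limits. At the lowest −log10 p of list 2 (1.58), 62093 of the 326674 peaks of list 1 remained. The list 1 ratios were then 1.67 for 3p21, 2.80 for 1q44, 1.85 for 12q24 and 1.70 for 10p11, all above 1.5.

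At 7q11 and 6p22 the value of the flanks depended on the side or on a peak-free stretch. 7q11, chromosome 7 from 63500001 to 65000000, is the widest cluster at 1500 kb, and it had 59.4% of its length covered in list 1 and 44.86% in list 2, against 34.3% and 27.4% (ratios 1.73 and 1.64). The flank towards the centromere was covered 49.1% and 44.1% and the other 19.4% and 10.6%, so that in list 2 the cluster exceeded the first only by 1.02 times and the second by 4.24 times. In list 1 these ratios were 1.21 and 3.06. Weighted by the fold of the peaks, the ratio to both flanks was 1.19 in list 1 and 1.14 in list 2, under the limit of 1.5. With flanks of 5 Mb it was 1.32 and 1.403, and without peak-free stretches of at least 100 kb it was 1.48 in list 2. 6p22, chromosome 6 from 28000001 to 28450000, was covered 47.2% and 26.5%, against 27.7% and 14.5% (ratios 1.70 and 1.82). Beyond it lies a stretch from 28477766 to 31228306 without a peak in either list, of which 1.97 Mb were taken out, so the comparison rests on the side at lower positions. With that stretch counted the ratios of 6p22 were 3.36 and 3.59. With flanks of 1 Mb they were 1.21 and 1.21, under the limit. In list 1 they were also under it with flanks of 5 Mb (1.43) and with borders moved inwards by 10 percent of the width (1.45). Its own coverage was close to the middle of the genome, since 51.0% of the windows in list 1 and 43.4% in list 2 were covered as much as 6p22 itself.

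At 9q22 and 7q36 neither list reached a limit, and 7q22 was sparser than its surroundings. 9q22, chromosome 9 from 99100001 to 99650000, had 46.5% of its length covered in list 1 and 33.5% in list 2, against 46.1% and 27.97% (ratios 1.01 and 1.20). 7q36, chromosome 7 from 148700001 to 149500000, was covered 32.7% and 16.7%, against 36.6% and 16.2% (ratios 0.893 and 1.04). Its run of genes includes ZNF746 (PARIS), a repressor that is a substrate of parkin. 7q22, chromosome 7 from 99050001 to 99240000, was covered 21.3% and 8.06%, against 33.6% and 17.1% (ratios 0.634 and 0.471). In list 1 this lay close to the limit of 1 divided by 1.5, and the ratio was above that limit with borders moved inwards (0.740), with the higher flank alone (0.706) and with fold-weighted coverage (0.670). It was the least covered cluster in both lists, and 88.0% and 86.4% of the windows were covered at least as much. Among its 18 peaks in list 1 and 7 in list 2 was 1 with a q-value at or under 0.05 in each list, of 9.04 kb from 99124487 to 99133524 (fold 2.78) and of 7.79 kb from 99124032 to 99131822 (fold 3.44), a peak named here after its values had been seen.

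**Figure D3:**
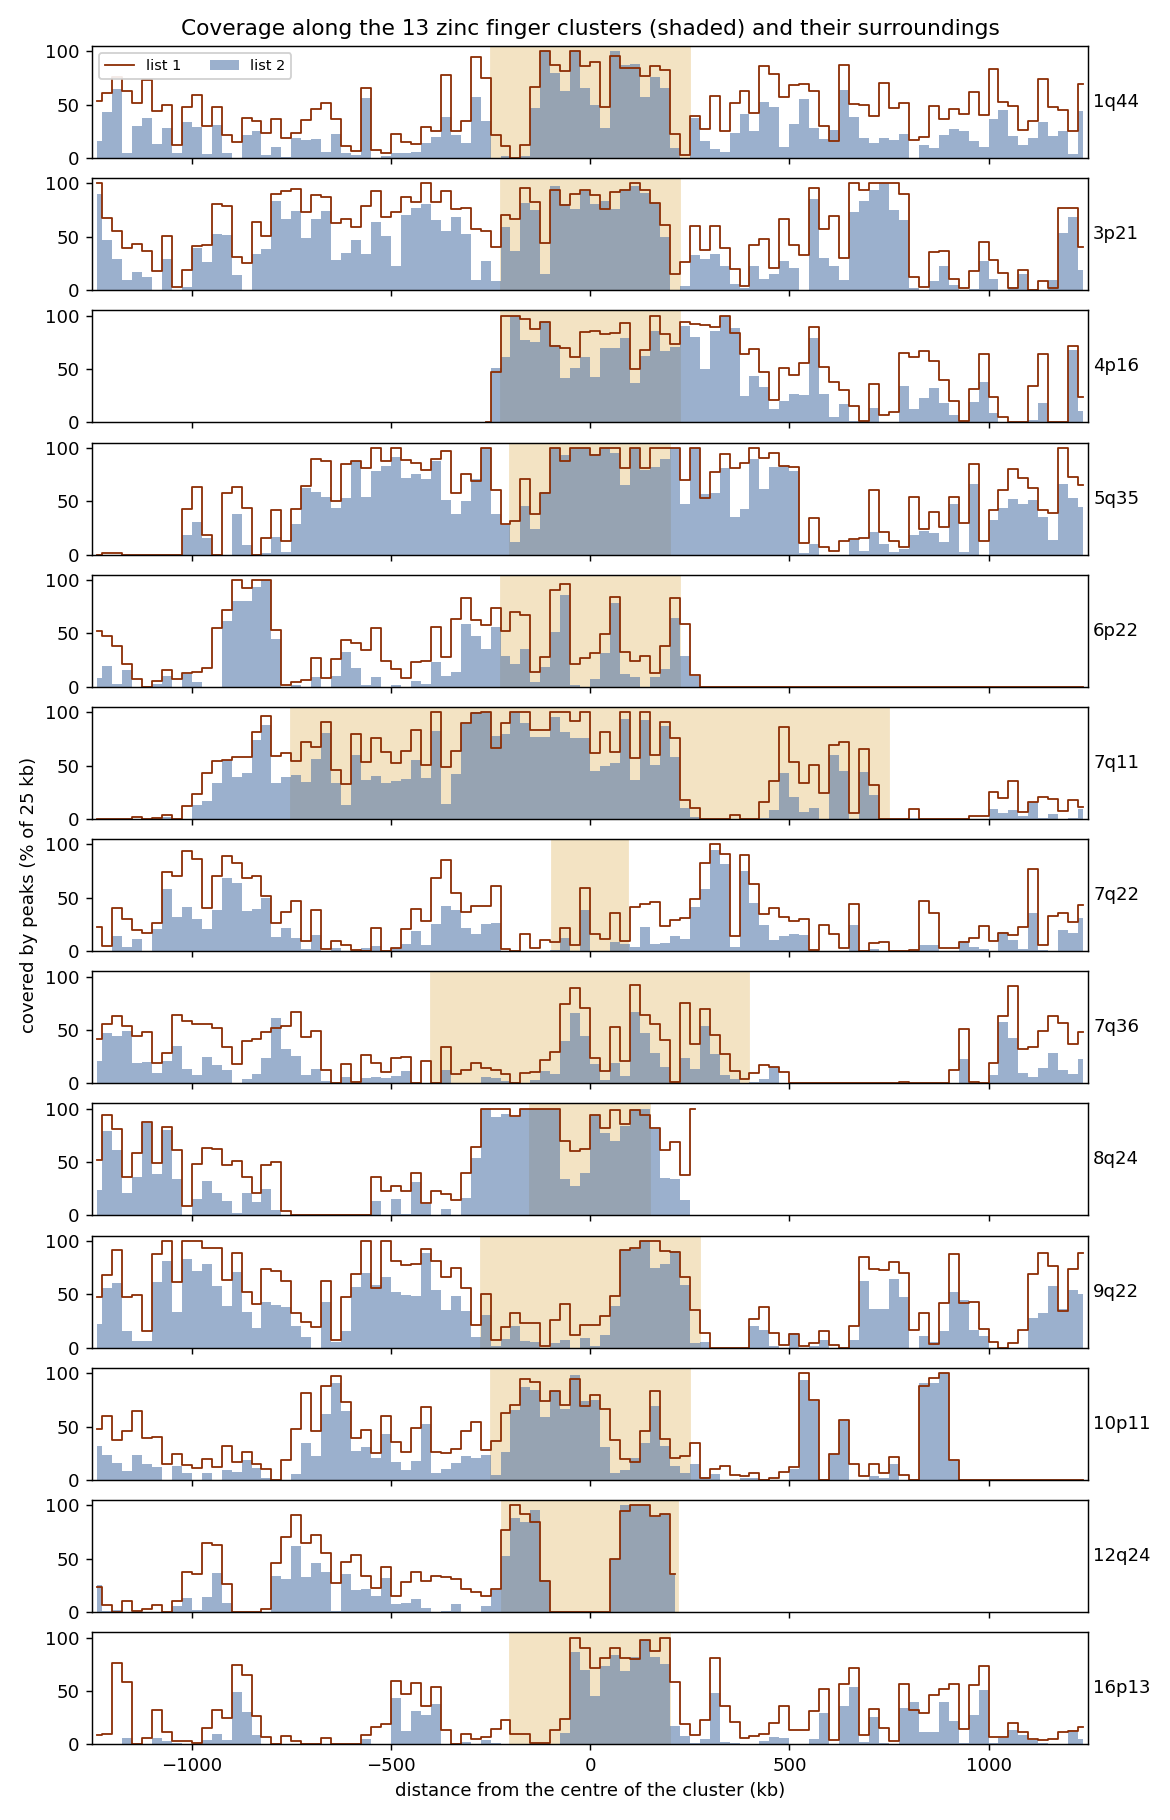
Share of each 25 kb covered by peaks (y axis, %) by distance from the centre of the cluster (x axis, kb), for list 1 (line) and list 2 (filled). The shaded part is the cluster. Dense blocks fill most of 3p21, 4p16, 5q35 and 8q24, only the part at higher positions of 9q22 and 16p13, and both ends of 12q24.

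Within a cluster the coverage was uneven and came in blocks. Of the 139 bins of 50 kb that make up the clusters, 66 (47.5%) were covered at least 50% in both lists, against 17.8% of such bins along the chromosomes. They made up 8 of 9 bins in 4p16, 7 of 9 in 3p21, 5 of 6 in 8q24 and 6 of 8 in 5q35, but 1 of 9 in 6p22, 2 of 16 in 7q36 and 0 of 4 in 7q22. These bins and the limit of 50% were chosen after the values had been seen.

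The cluster at 9q22 had a middling share and held a dense block. Each block given here was a longest run of neighbouring bins of 50 kb covered at least 50% in both lists. A block is therefore denser than the rest by the way it was chosen. Runs of this kind were not measured along the chromosomes. Its stretch at 99450001 to 99600000 had 94.3% of its length in peaks of list 1 and 88.1% in peaks of list 2, and over the rest of the cluster 28.6% and 13.1%. In the gene order of the table the zinc finger genes ZNF510 and ZNF782 are the last of this cluster, while ZNF367, CDC14B and others come first. Which of them the block holds was not placed. 16p13 was split in the same way. From 3250001 to 3500000 it was covered 87.8% and 76.4%, and over the rest, at lower positions, 9.93% and 1.75%. In 1q44 the first 100 kb were covered 11.2% and 0.842%, the 150 kb from 247100001 to 247250000 86.9% and 75.7%, and the last bin of 50 kb 12.5% and 4.56%. In 10p11 a block of 250 kb from 38050001 to 38300000 was covered 79.4% and 72.3%, against 38.46% and 22.1% of the rest.

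12q24, the cluster of ZNF10, held the longest uncovered stretch of list 1 and nearly that of list 2. List 1 had no peak from 133502326 to 133682457 and list 2 none from 133502516 to 133682537, 180.1 and 180.0 kb with ends that differ by less than 200 bases between the lists. On either side the coverage was high. Of the first 100 kb, peaks covered 91.3% (list 1) and 84.8% (list 2), and the part from 133700001 to 133840000 was covered 86.7% and 87.6%. In 7q11 list 2 had no peak over 181 kb from 64509990 to 64691205, where list 1 had none over 89.7 kb from 64606243 to 64695945, and the 350 kb from 63900001 to 64250000 were covered 90.6% and 82.8%. These 350 kb and the part of 12q24 from 133700001 to 133840000 were chosen as dense runs, in the same way as the blocks above. In 16p13 the uncovered 147 kb of list 2 were the first part of the cluster. The cause of these stretches was not tested, and no correction for DNA copy number or for sequence that reads cannot be placed on was available.

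The peaks of the clusters were wider and fewer than those of the flanks. Peaks of at least 10 kb made up 74.3% of the covered length of the clusters in list 1 and 66.4% in list 2, against 47.4% and 35.5% in the flanks and 45.3% and 26.8% over all chromosomes. The share was above that of the flanks in 12 of 13 clusters in list 1 and 10 of 13 in list 2. The number of peaks per Mb was below that of the flanks in 9 of 13 clusters in each list, with medians of 86.0 and 62.5 in the clusters against 97.5 and 69.5 in the flanks. Counted by number of peaks, the median ratio of cluster to flanks was 0.776 in list 1 and 0.863 in list 2. In list 1 the widest peaks that reached into a cluster were 126 kb in 8q24 (145851920 to 145977947), 98.6 kb in 5q35 (178534070 to 178632712), 89.3 kb in 7q11 (64129101 to 64218429), 86.0 kb in 4p16 (38227 to 124199) and 83.5 kb in 5q35 (178335706 to 178419221). In list 2 they were 126 kb in 8q24 (145851895 to 145977839), 91.2 kb in 8q24 (146129150 to 146220321), 91.1 kb in 12q24 (133682538 to 133773620), 83.7 kb in 5q35 (178335523 to 178419176) and 54.3 kb in 1q44 (247115053 to 247169356). The widest peak of 8q24 and that of 5q35 in list 2 each had a counterpart of nearly the same ends in the other list.

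The enrichment of single peaks was low, and slightly above that of the flanks in most clusters. The fold enrichment of each peak is the authors' value over the background of the peak caller, used within a list. The median fold of the peaks in a cluster ranged from 1.57 (7q22) to 2.16 (8q24) in list 1 and from 2.15 (6p22) to 2.55 (3p21) in list 2, and that of the flanks from 1.56 to 1.73 and from 2.07 to 2.31. It was above that of the flanks in 9 of 13 clusters in list 1 and 12 of 13 in list 2. Of the member peaks, 9 of 575 (1.57%) in list 1 and 51 of 517 (9.86%) in list 2 had an authors' q-value of 0.05 or lower, against 33 of 4182 (0.789%) and 122 of 3174 (3.84%) in the flanks. Over all peaks these shares were 0.19% and 2.07%. Without 8q24 and its flanks the shares were 0.894% (5 of 559) and 8.82% (44 of 499), against 0.575% (23 of 4000) and 3.14% (95 of 3028) in the flanks. In list 1 they rest on few peaks, 4 of the 9 in 8q24.

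The highest folds of the clusters belonged to 8q24. The peak from 146053364 to 146093909 had a fold of 4.30 in list 1 and was followed by peaks from 146176424 to 146220443 (3.80), from 145851920 to 145977947 (3.49) and from 146129032 to 146174712 (3.46) in the same cluster, and by a peak of 0.876 kb in 10p11 (38346957 to 38347832, 2.97). In list 2 the peak from 146053097 to 146077752 reached 6.16, followed by those from 146129150 to 146220321 (4.34) and from 145851895 to 145977839 (4.15). The next were in 16p13, from 3355900 to 3372404 (3.54), and in 3p21, from 44794939 to 44802582 (3.51). The 16p13 peak had a counterpart in list 1 from 3355787 to 3372994 with a fold of 2.88. All the peaks named in this paragraph had a q-value at or under 0.05.

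The covered stretches did not stop at the borders of every interval. With peaks less than 10 kb apart joined, more than 50% of the cluster lay in 1 domain in 8 of 13 clusters in list 1 and 5 of 13 in list 2. Joined domains were not counted for windows along the chromosomes, so whether this is particular to the clusters was not tested. The domain of 4p16 in list 1 ran from 38227 to 725163 and held the whole cluster. That of list 2 ran from 213478 to 727548, so they ended 225.2 and 227.5 kb past the border, at nearly the same place. In 16p13 the domain started inside the cluster, at 3242889 in list 1 and 3247370 in list 2, and ended 33.1 and 13.4 kb past it. In 12q24 the domain started at 133682458 and 133682538, where the uncovered stretch ended, and reached the last peak of the chromosome. The stretch of 100 kb inside a border was covered more than the 100 kb outside it at 15 of 25 borders in each list. The medians were 50.7% inside and 37.3% outside in list 1 and 37.7% and 20.4% in list 2. The exceptions include the lower borders of 1q44 (11.2% inside and 57.4% outside in list 1) and 9q22 (27.3% and 54.5%), where the covered block lay further inside. Less than 100 kb was available outside the lower border of 4p16 and inside the borders of the narrowest cluster. The count of borders is not far from an even split. Borders of windows along the chromosomes were not counted, so the count alone does not set the clusters apart.

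**Figure D4:**
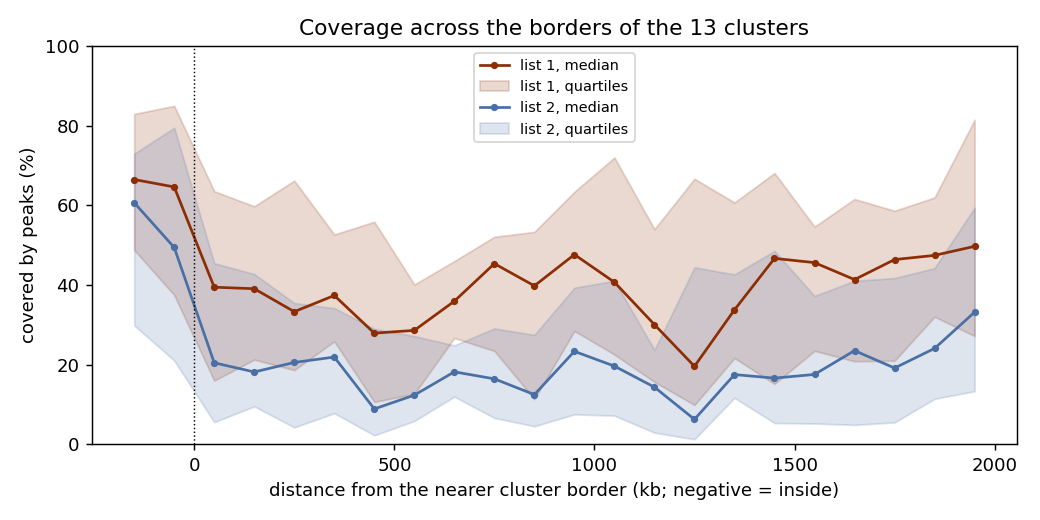
Covered share of stretches of 100 kb (y axis, %) by distance from the nearer border of a cluster (x axis, kb, negative inside), as the median (points) and quartiles (bands) over 20 to 24 stretches. In list 1 the median is 64.6% in the last 100 kb inside the border and 39.4% in the first outside it, and in list 2 it is 49.4% and 20.4%. Stretches under 100 kb are left out, 7q22 inside its borders among them, so these medians differ from those over 25 borders.

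The lists overlapped more within the clusters than along the chromosomes. In the clusters 75.3% of the base pairs under peaks in list 1 and 95.4% of those in list 2 were under peaks in the other list, against 49.5% and 88.2% over chromosomes 1 to 22 and X. The Jaccard index, the share of base pairs in both lists among those in either, was 0.727 for all clusters together and 0.464 along the chromosomes. It was highest in 12q24 (0.892), 8q24 (0.865) and 5q35 (0.850) and lowest in 7q22 (0.326), 7q36 (0.449) and 6p22 (0.526). An index of this kind rises with the covered share alone, and 7q22 and 7q36, which shared least, were also the least covered.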

How the data were processed

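H3K9me3 was profiled in U2OS cells with 2 antibody and 2 input samples. The submitters' processing notes name, without saying what each did, MACS2 (version 2.2.7.1), Trim Galore (0.6.7), bcl2fastq (2.17), Bowtie2 (2.5.0) and the build hg19. Neither the peak cutoff, nor pooling, nor whether the input entered the calling is stated in the labels. The deposited broad peak lists give for each peak a fold enrichment, which is a ratio over the background of the caller, a −log10 p and a −log10 q, and a score that was not used. No list was given to a sample, and a peak list holds no read count, so the depth is unknown.

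Coordinates are 1-based hg19 positions. Covered share is the merged length of peaks within a region over its length, with chromosome spans ending at the last peak. Flanks were 2 Mb on either side, without stretches of at least 1 Mb free of peaks in both lists. Windows of 0.5 Mb were treated in the same way. The calculation was tested on 20 simulated sets. The clusters, limits and lists were chosen with earlier results of these data known. The rule for named items took all clusters, and in each list the widest peak of a cluster where it was among the 5 widest, the 5 peaks of highest fold and at most 5 with a q-value at or under 0.05, which were the same 5. The further wide peak of 5q35 in list 1, the peaks of 7q22 and the list 1 counterpart in 16p13 were named after their values were seen. Protein sequences, which the rule also asked for, were not used here, and promoters of the first gene of the clusters concerned and of ZNF10 are shown in their place. No sequence is shown for 8q24. Alternatives concerned the peaks, the flanks, the borders and the measure. Calculations ran in Python 3.11.15 (pandas 2.3.3 with numpy 2.4.6), with plots from matplotlib 3.10.9.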

Additional observations from a re-analysis of the deposited data

How the results depend on the processing

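The alternatives that measured covered or fold-weighted length are given first, apart from the q-value limit. Under these the median ratio lay between 1.22 and 1.96 in list 1 and between 1.61 and 2.23 in list 2. It fell below 1 when peaks were counted in place of length, to 0.776 in list 1 and 0.863 in list 2, with 0 and 3 clusters at 1.5 or above, since the clusters held fewer and wider peaks. In list 1 the count of 6 clusters at 1.5 or above was 10 at the lowest −log10 p of list 2, 10 for base pairs in both lists and 3 with flanks of 5 Mb (3p21, 4p16 and 5q35). For peaks with a q-value at or under 0.05 the median was 4.63 in list 2. In list 1 it was 1.81, but only 8 of 13 clusters gave a value, and these spread from 0 to 73.2. Clusters with over 50% in 1 joined domain numbered 2 in list 1 and 0 in list 2 at 3 kb, and 8 in list 2 at 25 kb. By number of peaks, ratios above 1 fell below 1 in list 1 for 1q44 (0.636), 3p21 (0.638), 5q35 (0.776), 8q24 (0.616), 9q22 (0.988), 12q24 (0.305) and 16p13 (0.767), and in list 2 for 1q44 (0.624), 3p21 (0.565), 5q35 (0.970), 7q36 (0.770), 8q24 (0.863), 9q22 (0.694), 10p11 (0.946) and 12q24 (0.296). In list 1 7q22 was no longer lower (0.907). By peaks with a q-value at or under 0.05 called clusters changed direction in list 1 for 4p16, 5q35 and 7q11 (each 0) and 7q22 (73.2), and in list 2 for 7q11 (0.344), 10p11 (0.243) and 7q22 (4.54). The 7q22 values rest on 1 peak in each list. With flanks of 5 Mb ratios fell below 1 for 9q22 (0.960) and 12q24 (0.766) in list 1 and for 7q36 (0.683) and 12q24 (0.992) in list 2. The ratios of 7q36 in both lists and of 9q22 in list 1 lie near 1 and crossed it under further alternatives. Leaving out peak-free stretches of 100 kb, the clusters of chromosome 7 or 8q24 were alternatives chosen after seeing the data. A side of the flanks under 500 kb gave no value of its own. Planned protein sequences could not be shown. No paired analysis was possible because each list is 1 set of values assigned to no sample. The unknown depth limits every value.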
